A study of Rattus norvegicus with 42 samples.

Results

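Injection of vehicle into the vitreous of the rat eye, without damaging light, was compared with no treatment at all, gene by gene, in retina. The vehicle group held 5 libraries from adult rats that received vehicle in the vitreous and no light exposure, and the control group held 5 libraries from adult rats that received nothing. They were chosen by their labels and are 10 of 31 libraries analysed here. The same injection was also given with light of 15000 lux for 24 h, so 5 vehicle plus light libraries and 7 light damage libraries, which had the light alone, served as a second measurement of the vehicle effect in other animals. A further 4 libraries came from rats given 1 mM nanoceria (cerium oxide nanoparticles) in the vitreous without light. The remaining 5 libraries came from rats given 1 mM nanoceria and the same light. They entered the fit of all 31 libraries, but no comparison here uses them. No untreated rat was injected, so the needle, the added volume and the vehicle itself cannot be told apart, and neither the composition of the vehicle nor the time between injection and dissection is given in the sources used here. Strain, exact age and sex are not given either.

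An intravitreal injection passes a needle through the wall of the eye behind the lens and places fluid against the inner surface of the retina. The retina holds rod and cone photoreceptors, the interneurons behind them, ganglion cells whose axons form the optic nerve, Müller glia that span its whole depth, and resident microglia. Injury of the eye is known to activate microglia and Müller glia, which then make complement, chemokines, the filament protein GFAP and the photoreceptor survival factor FGF2. An injected control group therefore carries whatever the procedure itself does, and this comparison asks how much of that is seen in retinal RNA.

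Levels are CPM, counts scaled to the size and composition of each library, and differences are log2 fold changes, vehicle minus control, with their standard error (SE). Total counts ran from 73369026 to 121336562 in vehicle and from 74306775 to 120222710 in control libraries. Vehicle 4 and vehicle 7 stood apart by their likeness: 97.4% of 14842 genes of at least 1 CPM lay within 1.2-fold of each other, against 38.8% to 75.1% in the 19 other pairs within the 2 groups, and their counts still differed by more than sampling noise (chi-square over its degrees of freedom 4.40, against 111 to 583). The labels give them as separate biological replicates, and whether they came from separate rats was not tested. They entered as deposited, so n = 5, the SDs and the statements on overlap may rest on 4 vehicle rats. The SEs, intervals and p-values of the main fit carry the same limit. Counts of called genes and of list members are also given with the pair summed to 1 library where that changes them by over 1.5 times. Y-linked transcripts were high in 1 of 5 vehicle and in 4 of 5 control libraries, so sex was unevenly spread over the groups. A comparison within 1 sex would leave 1 library on 1 side, so a term for it was added to the fit in its place. Rod transcripts were abundant in every library, with a sum over 34 rod markers of 55593 to 68528 CPM in vehicle and 41503 to 77600 CPM in control. Markers of cornea and conjunctiva were present in both groups, with a sum over 12 markers of 5796 to 15762 CPM in vehicle and 4363 to 19247 CPM in control. The source of this RNA was not tested. Of these 12, 10 had a log2 fold change below 0, at a median of -0.28. An unadjusted p under 0.05 was found for 1 of them, which was lower (none with the pair summed). Of all genes tested, 3.78% were lower at that threshold. In such bulk RNA, fewer cells of a type and less RNA per cell cannot be told apart.

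The number of genes past the threshold was small in edgeR and depended on the tool. Of 18094 genes tested, 4 (0.0221%) passed an adjusted p of 0.05 in edgeR's quasi-likelihood test: the cytokine receptor gene Il17rb and LOC497796 rose (0.0111% of genes), and the transcription factor gene Etv4 and the smooth muscle actin gene Actg2 fell (0.0111%). DESeq2 called 51 genes and limma-voom with sample quality weights 2212, while edgeR on these 10 libraries alone called 0, with 1242 at an unadjusted p under 0.05. With vehicle 4 and 7 summed, 2 genes passed, Etv4 and Il17rb, and with a term for sex 1 did, Etv4. The column names number vehicle 1 and control 1 as 3 and 1 and the other libraries of both groups as 30 to 62, and without vehicle 1 and control 1 the count was 19. Without vehicle 1 alone it was 24, and without control 2, control 4 or vehicle 2 it was 1. At an unadjusted p under 0.05 stood 1462 genes (8.08%), 778 (4.3%) higher and 684 (3.78%) lower in vehicle, and with the pair summed 909, 3% higher and 2.02% lower. With a term for sex, 3.28% were higher and 2.66% lower. The median gene had a log2 fold change of -0.03. For 81.4% of all genes tested, the 95% interval of the difference lay within 2-fold either way. Of the 14114 genes with a mean log2 CPM of at least 1, this held for 92.95%. A larger change thus lay outside the interval for most well-expressed genes. The intervals count vehicle 4 and 7 as separate libraries, which can make them too narrow. These shares were not computed with the pair summed.

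**Figure D1:**
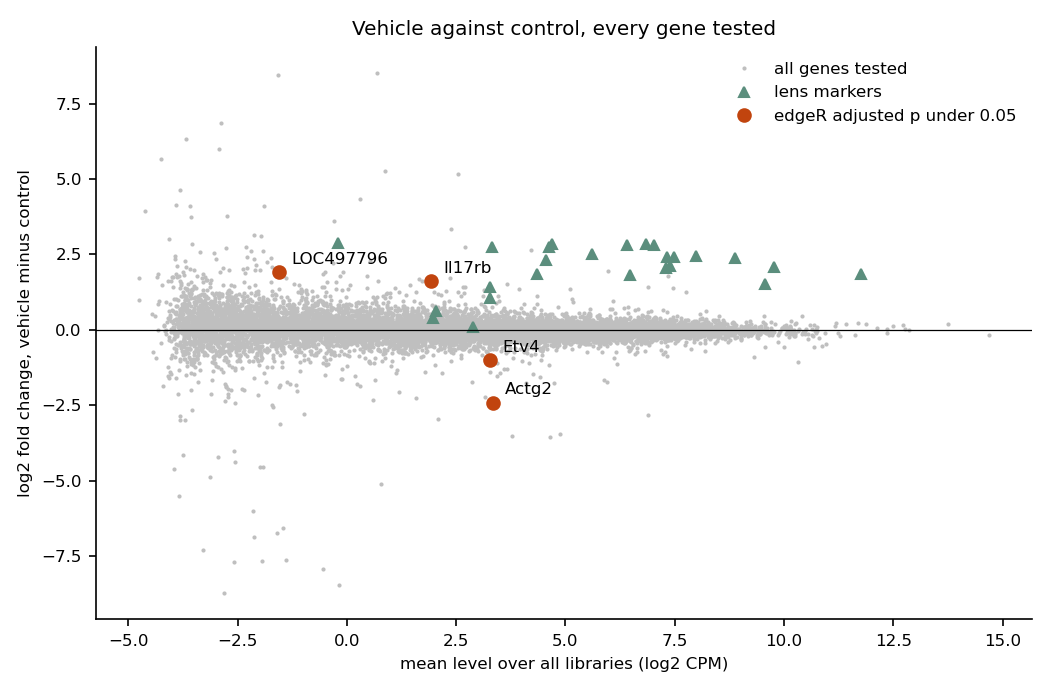
Log2 fold change (vehicle minus control) of every gene tested, against its mean log2 CPM over all libraries. Filled circles mark the 4 genes with an edgeR adjusted p under 0.05, and triangles mark 25 lens markers, whose median was 2.32 although none passed the test.

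Etv4 encodes an ETS-family transcription factor that is a target of FGF and ERK signalling in many tissues. Its level was 5.81, 5.30, 5.93, 6.15 and 6.11 CPM in vehicle 1, 2, 3, 4 and 7, against 10.3, 12.0, 10.7, 10.6 and 15.7 CPM in control 1, 2, 4, 5 and 6. Every vehicle library lay below every control library, and the vehicle libraries were the tighter group. The means were 5.86 ± 0.34 CPM in vehicle and 11.8 ± 2.26 CPM in control (SD, n = 5 each), a log2 fold change of -1.02 ± 0.14 (SE) with an edgeR adjusted p of 0.000994. With vehicle 4 and 7 summed the adjusted p was 0.00443. The call was lost in 1 of 20 settings, the fit of these 10 libraries alone, where the adjusted p was 0.0758.

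No other gene of that pathway passed the adjusted threshold. Among 24 tested genes of FGF and ETS signalling, Etv4 (lower) and Fgf2 (higher) were the members with an unadjusted p under 0.05. Of all genes, 3.78% were lower and 4.3% higher at that threshold. The related factor Etv5 averaged 33.9 ± 4.63 CPM in vehicle and 33.1 ± 4.46 CPM in control, and Etv1 averaged 28.2 ± 3.49 CPM in vehicle and 29.5 ± 3.35 CPM in control (SD, n = 5 each). The 95% interval of the log2 fold change ran from -0.17 to 0.23 for Etv5 and from -0.29 to 0.16 for Etv1. The feedback inhibitors of ERK signalling Spry4 and Dusp6, which FGF is known to induce, had log2 fold changes of 0.05 ± 0.11 and -0.08 ± 0.21 (SE), and the signs of Etv5, Etv1 and Spry4 turned in some settings given at the end.

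Il17rb encodes a receptor subunit for interleukin 17B and interleukin 25. Its level was 2.54, 3.65, 2.17, 1.504 and 1.44 CPM in vehicle 1, 2, 3, 4 and 7, against 0.563, 0.740, 0.604, 0.869 and 0.893 CPM in control 1, 2, 4, 5 and 6. The groups did not overlap, and the near-identical vehicle 4 and 7 were the lowest of the vehicle libraries. It rose by a log2 fold change of 1.62 ± 0.27 (SE, edgeR adjusted p = 0.0186), and 1.74 with the pair summed (adjusted p = 0.00907). The call was lost in 5 of 20 settings, among them the term for sex and the fits without control 2, control 4 or vehicle 2. Of 13 tested genes of the interleukin 17 pathway, Il17rb was the one that passed. The genes of its ligands were low, with Il25 at 0.594 CPM in vehicle and 0.529 CPM in control, and Il17b at 0.182 CPM in vehicle and 0.233 CPM in control.

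The sequence upstream of Il17rb is shown because it is the called gene that rose and has a RefSeq promoter entry, and that of Cxcl11, a chemokine gene described further on, because its difference changed sign under light. Each line gives the 250 bases before the annotated start, read on the strand of the gene, 5′ to 3′, from RefSeq build GRCr8, at chr16:5200658-5200907 (minus strand) for Il17rb and chr14:15973478-15973727 (plus strand) for Cxcl11.
Il17rb: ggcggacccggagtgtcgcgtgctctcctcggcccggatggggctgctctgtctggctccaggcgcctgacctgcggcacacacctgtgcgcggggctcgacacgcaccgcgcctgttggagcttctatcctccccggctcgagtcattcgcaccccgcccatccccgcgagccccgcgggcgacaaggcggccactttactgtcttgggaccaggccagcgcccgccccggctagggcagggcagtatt
Cxcl11: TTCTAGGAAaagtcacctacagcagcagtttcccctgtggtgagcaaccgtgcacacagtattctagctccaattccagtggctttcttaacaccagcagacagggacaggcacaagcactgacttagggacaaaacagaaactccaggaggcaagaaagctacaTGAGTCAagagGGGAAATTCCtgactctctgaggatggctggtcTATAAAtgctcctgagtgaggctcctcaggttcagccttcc
Capitals mark the letters of 4 motifs. From the 5′ end of the Cxcl11 line these are a STAT site (TTCNNNGAA, bases -250 to -242 from the start), an AP-1 site (TGANTCA, -85 to -79), a kappaB site (-74 to -65) and a TATA box (TATAAA, -41 to -36). No 2 of them overlap. The interferon response element GAAANNGAAA was searched as well. The Il17rb line has no capitals: none of the 5 motifs is written in this window, searched with 50 further bases after the start. All were read on both strands except TATAAA, which was read on the strand of the gene. Over 33469 rat promoters of that length, 4.18% held the kappaB motif, 7.33% the AP-1 motif, 8.87% the STAT motif, 3.92% the interferon motif and 8.8% the TATA motif. A match is a description of letters, and no factor binding was measured.

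Actg2, the smooth muscle gamma actin, stood at 5.46, 3.23, 3.89, 9.33 and 8.17 CPM in vehicle 1, 2, 3, 4 and 7, against 10.97, 73.2, 20.5, 16.6 and 39.5 CPM in control 1, 2, 4, 5 and 6. The groups did not overlap, but the highest control library was far above the lowest. Actg2 had a log2 fold change of -2.42 ± 0.45 (SE, edgeR adjusted p = 0.0452), and the gene missed the threshold in 13 of 20 settings, including the summed pair (adjusted p = 0.0513). The smooth muscle list also holds muscle genes not particular to smooth muscle, such as Ckm, Casq2 and Des. All 15 tested members had a log2 fold change below 0, at a median of -0.31. An unadjusted p under 0.05 was found for 5 of them, against 3.78% of all genes on the lower side. The count was 3 with the pair summed (2.02% of all genes) and 2 with a term for sex (2.66%). Cnn1, the actin-binding protein calponin 1, averaged 8.96 ± 5.42 CPM in vehicle and 22.3 ± 14.4 CPM in control (SD, n = 5 each; log2 fold change -1.31 ± 0.45, SE, unadjusted p = 0.00676). The vascular smooth muscle actin Acta2 differed by -0.21 ± 0.40 (SE), a sign that turned without control 2 and with limma-voom. Smooth muscle of the eye lies in vessels, iris and ciliary body. The endothelial list, which also holds the pericyte genes Pdgfrb and Kcnj8, summed to 826 to 1058 CPM in vehicle and 828 to 964 CPM in control. Kcnj8 ran from 3.60 to 4.52 CPM in vehicle and from 4.69 to 7.80 CPM in control. Among 19 tested members it was the 1 with an unadjusted p under 0.05, near the share of all genes. Ciliary body and iris markers summed to 1272 to 1336 CPM in vehicle and 1293 to 1605 CPM in control. The part of vessels, iris and ciliary body in the Actg2 difference was not tested.

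LOC497796, which the files name only by that identifier, was near the floor of detection, at 0.405, 0.572, 0.329, 0.338 and 0.347 CPM in vehicle 1, 2, 3, 4 and 7, against 0.0804, 0.0915, 0.129, 0.161 and 0.0596 CPM in control 1, 2, 4, 5 and 6. The libraries of the groups did not overlap, and the difference was 1.92 ± 0.34 in log2 units (SE; adjusted p = 0.0343 by edgeR), and the gene was called in 9 of 20 settings, not with the summed pair (adjusted p = 0.0513).

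**Figure D2:**
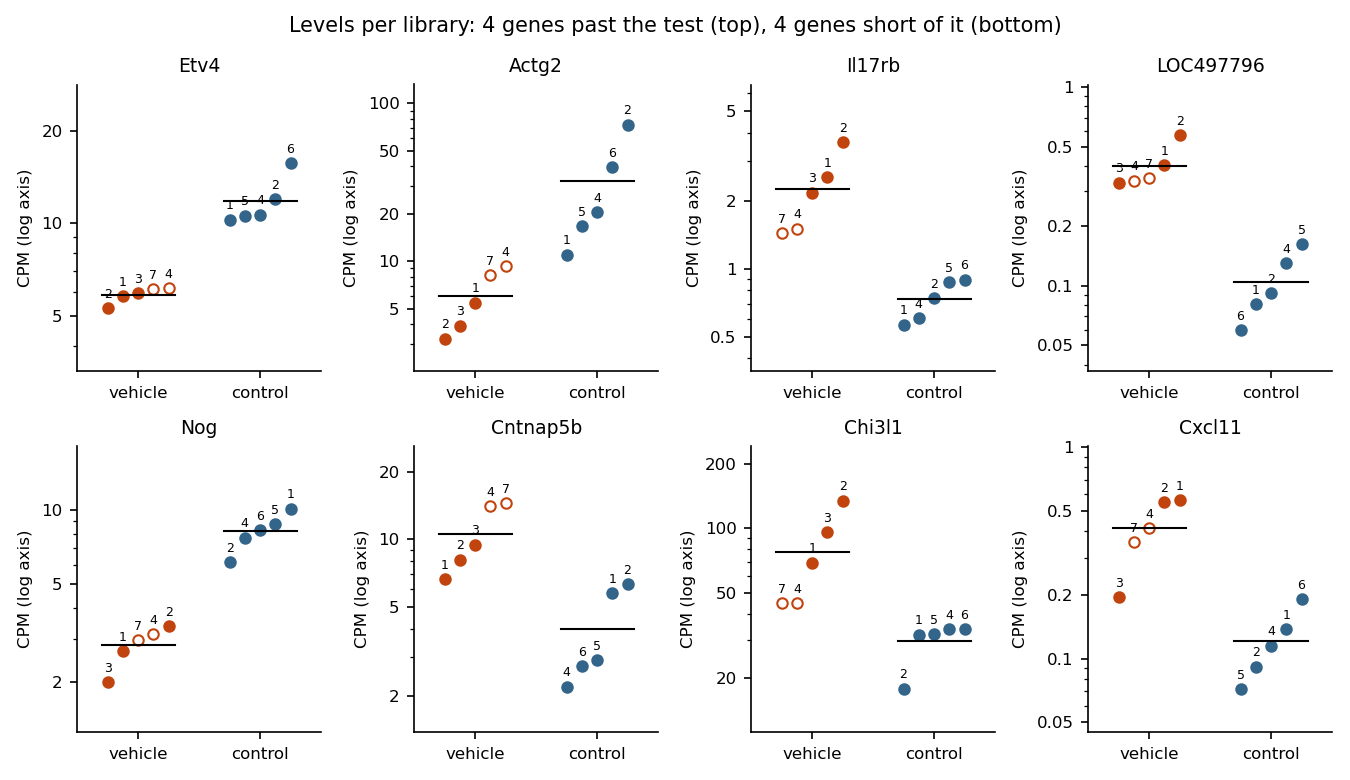
CPM per library on a log axis, with vehicle libraries left and control libraries right in each panel, the replicate number above each point, open circles for the near-identical vehicle 4 and 7, and a line at the mean. The groups do not overlap in any of the 8 genes, the 4 that passed the test (top) and 4 that did not (bottom).

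The genes with the next smallest p-values, none past the threshold, were of varied function. On the higher side, Cntnap5b, a contactin-associated adhesion protein of neurons, stood at 6.63, 8.13, 9.46, 14.1 and 14.5 CPM in vehicle 1, 2, 3, 4 and 7, against 5.76, 6.31, 2.20, 2.88 and 2.72 CPM in control 1, 2, 4, 5 and 6. The groups did not overlap, and the highest vehicle libraries were the near-identical pair. Its difference was 1.41 ± 0.28 in log2 units (SE; adjusted p = 0.0599 by edgeR), and 1.28 with the pair summed (adjusted p = 0.18). Kcnt2, a sodium-activated potassium channel, averaged 6.86 ± 0.67 CPM in vehicle and 4.17 ± 0.549 CPM in control (SD, n = 5 each). Plxna2, a semaphorin receptor, averaged 111 ± 17.7 CPM in vehicle and 83.5 ± 3.29 CPM in control, and Tmem237, a protein of the ciliary transition zone, 212 ± 21.6 CPM in vehicle and 138 ± 24.985 CPM in control (SD, n = 5 each). Nphs1, known as the nephrin of the kidney filter, averaged 5.14 ± 0.684 CPM in vehicle and 3.02 ± 0.664 CPM in control, but vehicle 1 and control 1 both read 4.14 CPM. Non-overlap of the 5 and 5 libraries was found for 181 genes (1%) on the higher side and 80 (0.442%) on the lower side.

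On the lower side, Nog, which encodes the BMP antagonist noggin, stood at 2.68, 3.39, 2.01, 3.14 and 2.97 CPM in vehicle 1, 2, 3, 4 and 7, against 10.1, 6.15, 7.72, 8.78 and 8.32 CPM in control 1, 2, 4, 5 and 6. The groups were well apart, at a log2 fold change of -1.53 ± 0.34 (SE, edgeR adjusted p = 0.103). Cxcl14, a chemokine of resting epithelia and neurons, averaged 48.6 ± 4.86 CPM in vehicle and 70.8 ± 12.1 CPM in control (SD, n = 5 each). Inha, the inhibin alpha subunit, averaged 5.33 ± 0.515 CPM in vehicle and 8.23 ± 1.67 CPM in control. The mitochondrial genes Pck2, Letm1 and Mrpl15 differed by less, with log2 fold changes of -0.39 ± 0.08, -0.18 ± 0.04 and -0.21 ± 0.05 (SE). Without vehicle 1, Pck2 passed at an adjusted p of 0.00289.

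Some chemokine genes of low level were higher in vehicle, short of the adjusted threshold. The chemokine and cytokine list did not hold Cxcl14, which was lower in vehicle as given above. Of the 27 tested genes of that list, 7 were higher at an unadjusted p under 0.05 and none lower. Of all genes, 4.3% were higher and 3.78% lower. The median log2 fold change of the list was 0.36 against -0.03 over all genes. None of the 27 passed the adjusted threshold. Cxcl11, an interferon-induced ligand of CXCR3 on T cells, stood at 0.561, 0.546, 0.195, 0.414 and 0.355 CPM in vehicle 1, 2, 3, 4 and 7, against 0.138, 0.0915, 0.115, 0.0716 and 0.191 CPM in control 1, 2, 4, 5 and 6. Vehicle 3 was just above the highest control library, and the other vehicle libraries were well above all controls. The difference was 1.79 ± 0.35 in log2 units (SE; adjusted p = 0.0599 by edgeR). Ccl3, a chemokine made by activated microglia, averaged 0.407 ± 0.193 CPM in vehicle and 0.171 ± 0.082 CPM in control, and the monocyte attractant Ccl2 averaged 1.79 ± 0.898 CPM in vehicle and 0.893 ± 0.294 CPM in control (SD, n = 5 each). The count of 7 became 8 with the pair summed, 4 with a term for sex and 5 without control 1. The interferon list did not show the same: none of its 30 tested members had an unadjusted p under 0.05, and their median was -0.14.

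No marker of microglia and macrophages passed the adjusted threshold. Of 24 tested, 21 had a log2 fold change above 0, at a median of 0.42, and 10 were higher at an unadjusted p under 0.05, against 4.3% of all genes (3% with the pair summed). C1qa, a chain of the complement starter C1q that microglia make, stood at 40.4, 71.2, 41.4, 35.9 and 35.8 CPM in vehicle 1, 2, 3, 4 and 7, against 23.5, 30.5, 30.6, 37.9 and 30.95 CPM in control 1, 2, 4, 5 and 6. Vehicle 2 was far above the rest, and control 5 lay above vehicle 4 and 7. The log2 fold change was 0.55 ± 0.22 (SE, unadjusted p = 0.0207), with 0.57 ± 0.21 for C1qb and 0.57 ± 0.21 for Fcer1g, the shared signalling chain of Fc receptors. The microglial marker Aif1 averaged 10.2 ± 1.67 CPM in vehicle and 7.76 ± 0.904 CPM in control (SD, n = 5 each, unadjusted p = 0.0594). The count of 10 was again 10 with the pair summed and was 5 with a term for sex, 6 without vehicle 1 and 3 without control 1, the library with the lowest sum over these markers. That sum ran from 798 to 1045 CPM in vehicle and from 573 to 1041 CPM in control.

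Complement genes overlap with that list through the C1q chains. Of 21 tested, 6 were higher at an unadjusted p under 0.05 and none lower, against 4.3% and 3.78% of all genes. The higher count was 7 with the pair summed (3% of all genes), 5 with a term for sex (3.28%) and 3 without control 1. C3ar1, the receptor for the C3a fragment, averaged 2.71 ± 0.628 CPM in vehicle and 1.66 ± 0.233 CPM in control without overlap (SD, n = 5 each, unadjusted p = 0.00949). C3 itself, the central component, stood at 62.7, 58.9, 49.3, 28.7 and 29.99 CPM in vehicle 1, 2, 3, 4 and 7, against 14.2, 20.1, 27.8, 22.5 and 34.4 CPM in control 1, 2, 4, 5 and 6, so only control 6 lay within the vehicle range. Its log2 fold change was 0.95 ± 0.48 (SE, unadjusted p = 0.0566).

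Markers of blood leukocytes were scarce. Of 14 neutrophil markers 10 passed the filter on low counts. At an unadjusted p under 0.05, 4 of these were higher, against 4.3% of all genes. The count of higher markers was 3 with the pair summed (3% of all genes) and 2 with a term for sex (3.28%). Mmp8, a collagenase of neutrophil granules, averaged 0.270 ± 0.125 CPM in vehicle and 0.0446 ± 0.0208 CPM in control. The receptor gene Csf3r averaged 1.56 ± 0.516 CPM in vehicle and 0.704 ± 0.106 CPM in control (SD, n = 5 each). Both were without overlap. For S100a8 and S100a9, which neutrophils make in bulk, the interval of the log2 fold change included 0 (1.11 ± 0.79 and 0.80 ± 0.68, SE). Of 19 lymphocyte markers, 3 were higher at an unadjusted p under 0.05, against 4.3% of all genes (5 with the pair summed, against 3%). Gzmb, the granzyme of killer cells, was listed at 0 in control 1 and control 4 and reached at most 0.0416 CPM in control, against 0.0519 to 0.135 CPM in vehicle. None passed the adjusted threshold, and the blood list, with 5 tested genes of red cells and platelets, had none at an unadjusted p under 0.05.

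Of 25 reactive glia genes, 6 were higher and 1 lower at an unadjusted p under 0.05, against 4.3% and 3.78% of all genes. None of the list passed the adjusted threshold. Chi3l1, a secreted protein that reactive astrocytes make, stood at 69.1, 135, 95.9, 44.8 and 44.7 CPM in vehicle 1, 2, 3, 4 and 7, against 31.9, 17.8, 33.8, 32.1 and 33.9 CPM in control 1, 2, 4, 5 and 6. Every vehicle library lay above every control library, with the near-identical pair lowest. Chi3l1 differed by 1.38 ± 0.29 in log2 units (SE; adjusted p = 0.0852 by edgeR, and 0.0513 with the pair summed). Ceruloplasmin (Cp), a copper-carrying ferroxidase, averaged 149 ± 24.6 CPM in vehicle and 97.0 ± 15.9 CPM in control, and Fgf2 averaged 1.81 ± 0.429 CPM in vehicle and 1.18 ± 0.296 CPM in control (SD, n = 5 each). The lower member was Cnn1, the smooth muscle gene described above.

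Gfap, the filament gene of reactive Müller glia and of optic nerve astrocytes, stood at 346, 132, 81.3, 50.8 and 49.1 CPM in vehicle 1, 2, 3, 4 and 7, against 87.3, 12.3, 48.5, 17.8 and 110 CPM in control 1, 2, 4, 5 and 6. The groups overlapped widely and vehicle 1 stood alone. Gfap had a log2 fold change of 1.26 ± 0.51 (SE, unadjusted p = 0.0196) and 0.51 without vehicle 1 (unadjusted p = 0.279). Vehicle 1 and control 6 also had the highest sums over 14 optic nerve glia markers, 2955 and 2344 CPM. The sums were 979 to 1197 CPM in the other vehicle libraries and 582 to 1303 CPM in the other control libraries. These markers include Gfap itself, and Aqp4, which is also in the Müller glia list. The part of optic nerve tissue in the Gfap difference was not tested. Lif, a cytokine of stressed Müller glia, and the endothelin Edn2 of injured photoreceptors had log2 fold changes of 0.09 ± 0.43 and 0.85 ± 0.43 (SE), the first of which turned negative in 4 settings.

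**Figure D3:**
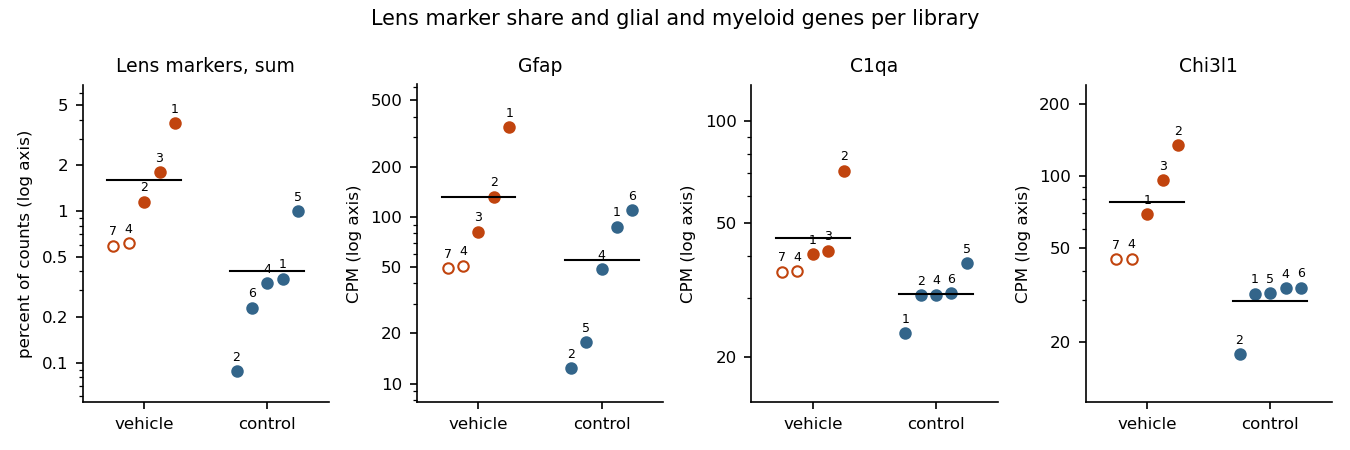
Lens marker share of all counts (percent) and CPM of Gfap, C1qa and Chi3l1 per library, on log axes, with vehicle libraries left and control libraries right, replicate numbers above the points, open circles for vehicle 4 and 7, and a line at the mean. Vehicle 1 is highest for the lens share and Gfap, and vehicle 2 for C1qa and Chi3l1.

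Lens transcripts gave the largest differences of any list. Crystallins and other lens markers took 1.59% ± 1.32 of all counts in vehicle libraries (lowest 0.590%, median 1.147%, highest 3.78%), against 0.401% ± 0.350 in control libraries (lowest 0.0876%, median 0.334%, highest 0.998%; SD, n = 5 each). The ranges overlapped, since control 5 exceeded vehicle 4 and 7. All 25 tested markers had a log2 fold change above 0, with a median of 2.32. An unadjusted p under 0.05 was found for 23, against 4.3% of all genes on the higher side. None was past the adjusted threshold. Alpha crystallin A (Cryaa) stood at 16430, 5751, 9322, 3437 and 3379 CPM in vehicle 1, 2, 3, 4 and 7, against 2099, 452, 2011, 4762 and 1210 CPM in control 1, 2, 4, 5 and 6. Mip, the lens water channel, ran from 17.9 to 367 CPM in vehicle and from 3.80 to 99.6 CPM in control, and the gamma crystallin Cryga from 2.53 to 135 CPM in vehicle and from 1.29 to 15.2 CPM in control. Without vehicle 1, no lens marker had an unadjusted p under 0.05, the median was 1.29, the share in vehicle was 1.04%, and Cryga differed by 0.03. With the pair summed the count was again 23, at a median of 2.57. The sums over markers of cornea and conjunctiva, given above, overlapped between the groups. The source of the lens RNA was not tested.

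None of 33 tested rod genes, 17 Müller glia genes and 17 ganglion cell genes had an unadjusted p under 0.05. Their medians were 0.17, -0.06 and -0.15, and 30, 7 and 2 of them had a log2 fold change above 0. Of all genes, 4.3% were higher and 3.78% lower at that threshold (3% and 2.02% with the pair summed). These shares stand beside the other cell type lists here too. Without control 6 the ganglion cell median was -0.27, and 2 of these genes were lower at that threshold, against 595 of 18094 genes. The rod transducin subunit Gnat1 averaged 11867 ± 1603 CPM in vehicle and 10961 ± 3090 CPM in control (SD, n = 5 each), and the 95% interval of its log2 fold change, -0.69 to 0.92, did not reach a 2-fold loss. Glutamine synthetase of Müller glia (Glul) averaged 2519 ± 287 CPM in vehicle and 2727 ± 501 CPM in control, and Rbpms, a ganglion cell marker, 18.6 ± 2.12 CPM in vehicle and 20.6 ± 7.14 CPM in control. Among 14 cone genes Cngb3, a subunit of the cone channel, was higher (7.94 ± 0.809 CPM in vehicle and 6.03 ± 0.888 CPM in control, unadjusted p = 0.024) and 1 other was lower, while the blue cone pigment gene Opn1sw overlapped between groups. Of 16 bipolar cell genes 2 were lower at an unadjusted p under 0.05 (1 with the pair summed), among them the mGluR6 cascade gene Gpr179 at 102 ± 12.8 CPM in vehicle and 130 ± 19.2 CPM in control (SD, n = 5 each). Of 20 amacrine and horizontal cell genes 2 were higher and 2 lower (1 and 1 with the pair summed), with the factor gene Prox1 at 141 ± 16.6 CPM in vehicle and 104 ± 13.0 CPM in control (SD, n = 5 each, unadjusted p = 0.0103). Of 16 pigment epithelium genes, 8 had a log2 fold change above 0, and the median was -0.01. Rpe65, which was lower, was the 1 with an unadjusted p under 0.05, near the share of all genes. Its unadjusted p was 0.0325, and 0.0842 with the pair summed, with overlapping ranges of 206 to 660 CPM in vehicle and 375 to 785 CPM in control.

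No sterol synthesis or cell cycle gene passed the adjusted threshold. Of 23 sterol genes, 22 had a log2 fold change below 0 and 9 an unadjusted p under 0.05, against 3.78% of all genes on that side, at a median of -0.24. Mvd, an enzyme of the mevalonate pathway, averaged 29.4 ± 1.95 CPM in vehicle and 35.7 ± 4.01 CPM in control (SD, n = 5 each). The count was 5 with the pair summed and 5 without control 6, but 14 without vehicle 1 and 16 without control 1. The number of all 18094 genes on the lower side moved too. It was 366 (2.02%) with the pair summed, 595 without control 6, 1027 without vehicle 1 and 856 without control 1. Of 22 cell cycle genes, 10 were lower, at a median of -0.55, but 1 with the pair summed and none without control 6. Leaving out vehicle 1 gave 15, and leaving out control 1 gave 17. Control 6 had a sum over these genes of 830 CPM, against 331 to 499 CPM in vehicle and 300 to 505 CPM in the other control libraries, and without that library the median was -0.19.

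The count of clock genes varied little across settings. Of 18 tested, 5 were higher at an unadjusted p under 0.05 and none lower, and 5 or 6 were higher in each of the 5 other fits tried. Of all 18094 genes, 4.3% were higher in the main fit, 3% with the pair summed and 3.28% with a term for sex. Without control 6, vehicle 1 or control 1, 1038, 853 and 807 of all genes were higher. Cry2, a repressor of the clock, averaged 189 ± 29.98 CPM in vehicle and 144 ± 13.6 CPM in control, and Per3 113 ± 30.7 CPM in vehicle and 76.6 ± 11.2 CPM in control (SD, n = 5 each). Clock transcripts follow the hour of dissection, which is not given for any rat. Vehicle 4 and 7 had the highest Per3, 143 and 148 CPM. Of 24 immediate early genes, 2 were higher and 1 lower, counts near the 4.3% and 3.78% of all genes. The activity-induced Npas4 was at 4.71 ± 1.40 CPM in vehicle and 2.73 ± 0.665 CPM in control, and the stress factor Atf3 at 14.1 ± 3.48 CPM in vehicle and 23.1 ± 9.62 CPM in control.

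Of 26 genes of the integrated stress response, which the factor ATF4 drives, 4 had an unadjusted p under 0.05, all lower. Of all genes, 3.78% were lower at that threshold. With the pair summed the count was again 4, against 2.02% of all genes. The mitochondrial folate enzyme Mthfd2 stood at 11.8, 8.26, 7.93, 8.83 and 8.65 CPM in vehicle 1, 2, 3, 4 and 7, against 9.70, 16.9, 10.5, 37.8 and 15.8 CPM in control 1, 2, 4, 5 and 6. Control 5 was far above the rest and the groups overlapped. The pseudokinase Trib3 averaged 6.09 ± 2.13 CPM in vehicle and 12.9 ± 7.53 CPM in control (SD, n = 5 each, log2 fold change -1.09 ± 0.28, SE). Of 32 antioxidant genes, 1 was lower and none higher at an unadjusted p under 0.05 (none either way with the pair summed). Superoxide dismutase 2 (Sod2) differed by -0.08 ± 0.15 and haem oxygenase 1 (Hmox1) by 0.28 ± 0.35 on the log2 scale (SE), and no heat shock gene of 14 had an unadjusted p under 0.05.

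**Figure D4:**
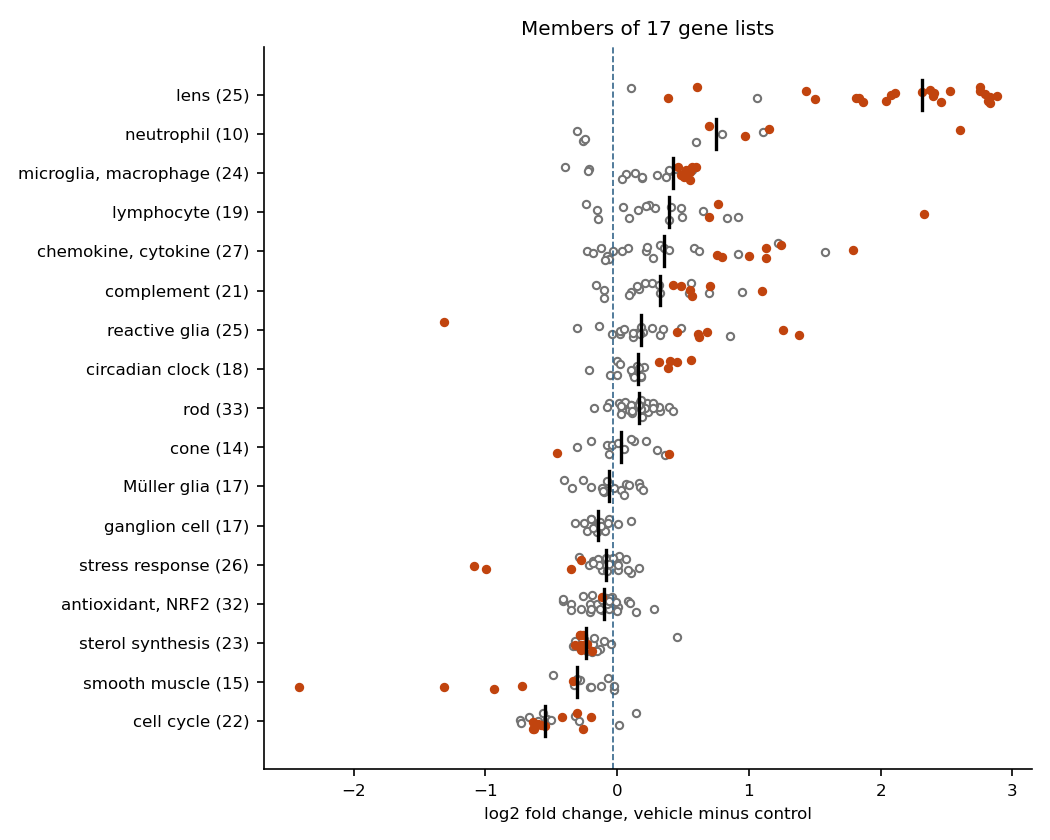
Log2 fold change, vehicle minus control, of each tested member of 17 gene lists, with the number tested beside each name. Filled points have an unadjusted p under 0.05, black bars are list medians, and the dashed line is the median of all genes at -0.03. Lens markers sit farthest to the right, and cell cycle genes farthest to the left by their median.

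The vehicle effect under light was measured in other animals, vehicle plus light against light damage, where 22 genes (0.122%) passed the edgeR test and none of the 4 genes called without light did. Light damage 4 and 7 were the second closest pair of the series (chi-square over its degrees of freedom 10.5), and 19 genes passed without light damage 4 and 18 without light damage 7. Il17rb was higher there too, at 5.95 ± 1.88 CPM in vehicle plus light (n = 5) and 3.81 ± 0.798 CPM in light damage (SD, n = 7), a log2 fold change of 0.65 ± 0.24 (SE, unadjusted p = 0.0106). Actg2 was lower, at 3.07 ± 0.982 CPM in vehicle plus light and 7.07 ± 2.20 CPM in light damage, a log2 fold change of -1.21 ± 0.41 (SE, unadjusted p = 0.00663). LOC497796 differed by -0.09 ± 0.30 (SE). At an unadjusted p under 0.05 in both contrasts stood 177 genes, which are 12.1% of the 1462 without light and 11.9% of the 1482 with light, and 129 of them had the same direction. Under light 4.41% of all genes were higher at that threshold and 3.78% lower. Over all 1462 genes the direction was the same under light for 64.4%, against 56.9% of all genes tested. C1qa was again higher in vehicle (log2 fold change 0.48 ± 0.21, SE, unadjusted p = 0.0284), and the lens median was 0.15. Of 24 microglia and macrophage markers, 5 were higher and 1 lower under light at an unadjusted p under 0.05, at a median of 0.17. Of 27 chemokine and cytokine genes, 1 was higher and 3 were lower, at a median of -0.11.

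The difference between the 2 vehicle effects passed the edgeR test for 8 genes (0.0442%). Etv4 was 11.4 ± 1.13 CPM in vehicle plus light (n = 5) and 10.5 ± 1.06 CPM in light damage (SD, n = 7), so its vehicle effect was 0.12 with light and -1.02 without light, a difference of 1.14 (adjusted p = 0.00849). Cntnap5b went opposite ways, with -1.24 with light and 1.41 without light (adjusted p of the difference 0.00223). It averaged 3.06 ± 0.812 CPM in vehicle plus light and 7.18 ± 1.31 CPM in light damage. Cxcl11 had a vehicle effect of -0.69 with light and 1.79 without light (adjusted p = 0.0253), and Ccl3 -1.10 with light and 1.25 without light (adjusted p = 0.0438). Both chemokines were higher in the lit groups than in vehicle or control libraries, with Ccl3 at 4.79 ± 1.42 CPM in vehicle plus light and 10.3 ± 2.89 CPM in light damage, and Cxcl11 at 1.75 ± 0.527 CPM in vehicle plus light and 2.84 ± 0.543 CPM in light damage. For Il17rb the difference of effects, -0.97, had an adjusted p of 0.623.

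**Figure D5:**
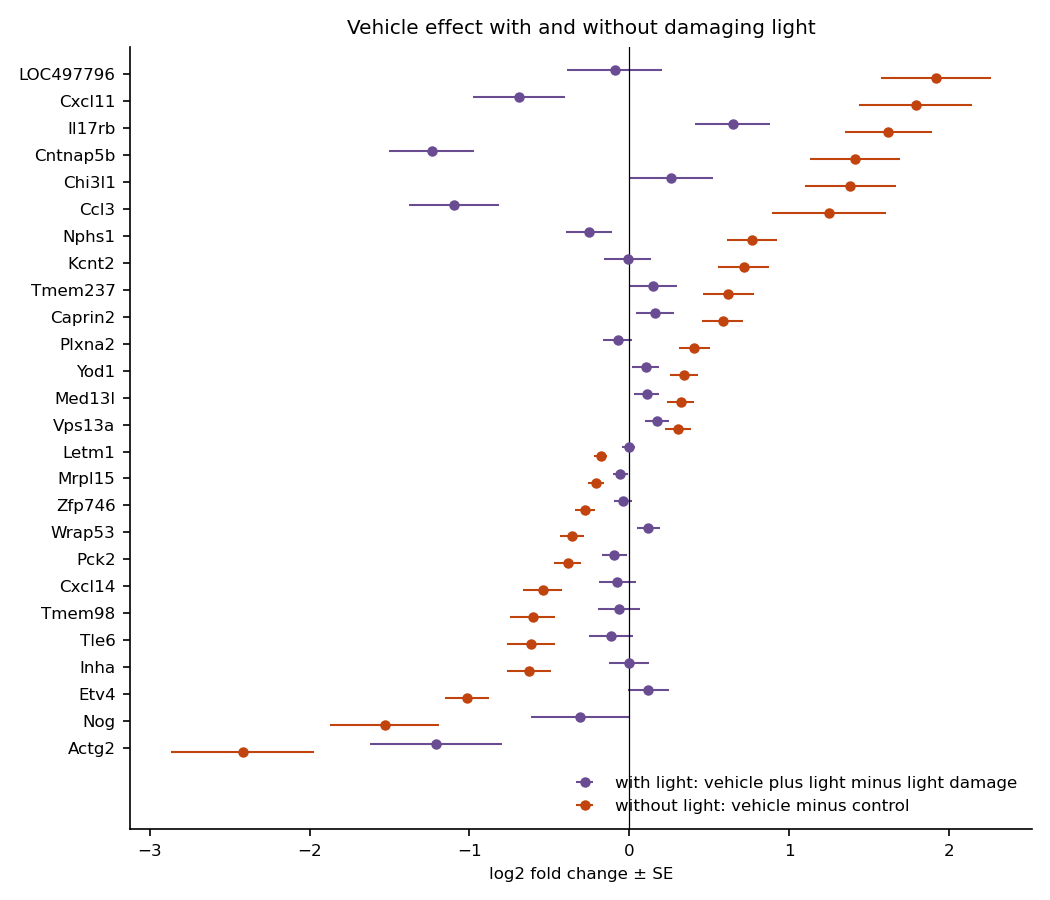
Log2 fold change ± SE of the vehicle effect with light (vehicle plus light minus light damage, upper point) and without light (vehicle minus control, lower point), for the called genes, the next 10 genes by p in each direction and the chemokines Cxcl11 and Ccl3. Cntnap5b, Cxcl11 and Ccl3 lie on opposite sides of 0 in the 2 contrasts, and Il17rb and Actg2 on the same side.

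Nanoceria without light against the same control libraries is set beside these values, with 445 genes (2.46%) called. The controls are shared, so no likeness between the 2 comparisons is drawn. Nanoceria minus control was 2.57 for Il17rb, -2.50 for Actg2, 2.41 for LOC497796 and -0.85 for Etv4, and vehicle minus control was 1.62, -2.42, 1.92 and -1.02 for the same genes. Chi3l1 averaged 203 ± 66.0 CPM in nanoceria libraries (SD, n = 4), with a log2 fold change over control of 2.76, where vehicle had 1.38. For Cxcl11 the nanoceria value was 2.46 and the vehicle value 1.79, and for Nog they were 0.44 and -1.53.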

How the data were processed

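Retinal poly(A) RNA was read in pairs of 150 bp, per the labels. The deposited table holds raw counts per gene. Reads were handled with Trimmomatic 0.39, STAR 2.7.9a, featureCounts (Subread 2.0.1), DESeq2 1.30.1 and R 4.0 on build rn6, per the submitters' processing notes. Whether counting used strand, which annotation release was used and how multi-mapped reads were treated is not given in the sources used here, so genes that overlap or have near-identical copies are uncertain. Of 42 labelled samples, 31 had a column and 11 were not analysed here.

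Of 32623 genes, 9389 had 0 counts in every library. filterByExpr (minimum count 10, minimum total 15) kept 18094. The quasi-likelihood test of edgeR 4.0.16 (R 4.3.3, robust, TMM, 1 coefficient per group) was fitted on all 31 libraries, with Benjamini-Hochberg adjustment over 18094 genes and calls at an adjusted p under 0.05. An unadjusted p is from the same fit. CPM are TMM-scaled, and intervals come from the SE and the fit's degrees of freedom. The labels give biological replicates. The script was tested on simulated data.

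The comparison, the genes and the 37 gene lists (752 members, 29 without a match, 710 tested) were chosen with earlier results of these data known. Genes were named by rule: every called gene, the 10 smallest p-values in each direction among uncalled genes with a mean log2 CPM of at least 1 and a proper symbol, the 2 smallest in each list, and a fixed set. The text gives a selection, and some genes are not reported here. S100a8, S100a9, Il25 and Il17b were chosen after their values were seen. Y-linked transcripts counted as high above 20 CPM. Promoters are from RefSeq (GRCr8), matched by symbol. Alternatives were other scaling, no filter, the 10 libraries alone, DESeq2 1.42.0, limma 3.58.1 (voom), the replicate number as a block, vehicle 4 and 7 summed, a term for sex and each library left out.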

Additional observations from a re-analysis of the deposited data

Results flagged for a closer look

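In 138 groups of 5 values, 17 had a library far from the other 4 by Dixon's test, where chance flags about 1 in 20 groups. Vehicle 2 was high for the microglial genes C1qa (71.2 CPM), C1qb (43.3 CPM) and Fcer1g (16.4 CPM), and low for Wrap53 (9.93 CPM). Vehicle 1 was high for Gfap (346 CPM), Cryga (135 CPM), Mthfd2 (11.8 CPM) and Sod2 (133 CPM), and low for Cry2 (137 CPM). Vehicle 3 was high for Ccl3 (0.748 CPM). Control 5 was high for Mthfd2 (37.8 CPM), Cryga (15.2 CPM) and Mip (99.6 CPM). Control 1 was high for Tmem237 (181 CPM), control 2 was low for Chi3l1 (17.8 CPM) and high for Per3 (96.4 CPM), and control 6 was high for Sod2 (124 CPM).

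The vehicle effect with light minus that without light passed the interaction test for 4 of the genes named: Cntnap5b (-2.64 on the log2 scale), Etv4 (1.14), Cxcl11 (-2.48) and Ccl3 (-2.35).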

How the results depend on the processing

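For vehicle against control, the 4 calls became 0 when only the 10 libraries were fitted (1242 genes at an unadjusted p under 0.05), 51 with the Wald test of DESeq2, 2212 with limma-voom and sample quality weights, 2 with vehicle 4 and 7 summed and 1 with a term for sex, and 1 to 24 when each library was left out in turn, 24 of them without vehicle 1. Leaving out replicate 1 of both groups, an alternative added after seeing the data, gave 19. For the vehicle effect under light the 22 calls became 94 with DESeq2 and 228 with voom, and 17 to 30 with 1 library left out. For the difference of the effects the 8 calls became 42 with DESeq2, 118 with voom and 5 with the replicate block, and 5 to 21 with 1 library left out. The cause was not tested. For vehicle against control, the calls of DESeq2 and of voom held all 4 genes.

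With the replicate number as a block, 3 genes were called for vehicle against control and 18 under light. Same-numbered vehicle and control libraries did not deviate together (correlations of -0.0026, 0.093 and -0.139 for replicates 1, 2 and 4), so the numbers were not taken as pairs.

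Over the genes named, 1243 values kept direction and call, 70 gained and 30 lost a call, and 15 changed sign. Lif was -0.153 with a term for sex, -0.0812 without control 1, -0.196 without vehicle 3 and -0.0062 without replicate 1 of both. Acta2 was 0.0431 with voom and 0.00786 without control 2. Cryga was -0.180 and Glul 0.0265 without replicate 1 of both. Opn1sw was -0.171 with voom, and Etv1 0.00348 without control 1. With 1 library left out in turn, Lif ran from -0.196 to 0.425, Acta2 from -0.430 to 0.00786, Etv1 from -0.131 to 0.00348, Etv5 from -0.0197 to 0.0877 and Spry4 from -0.00893 to 0.0874. Etv5 was -0.115 with voom, -0.0174 without control 6, -0.0197 without vehicle 1 and -0.0174 without vehicle 2. Spry4 was -0.00893 without vehicle 2. List counts under further fits were added after seeing the data. Counts of 0.1 CPM or less rest on few reads.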

Other observations

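The genes below were chosen after their values were seen and no test beyond the fit of all genes was made on them. Of 34 genes at least 16-fold apart between vehicle and control, 13 higher and 21 lower, 21 had over 90% of their summed CPM in 1 library. Among the lower ones were 11 hair genes, such as the hair keratins Krt27 (log2 fold change -8.48), Krt81 (-7.69) and Krt86 (-6.74). Their summed level was 0.0727 to 0.248 CPM in vehicle and 0.126 to 0.322 CPM in control 1, 2, 4 and 5, but 62.5 CPM in control 6. Light damage 5 was the one other library of the series at such a level, 67.0 CPM, and vehicle plus light 4 had 14.2 CPM.

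Hsp90aa1 and Hprt1, which every cell uses, were listed at 0 in 26 of 31 libraries each. Vehicle 7 had 245 counts of Hsp90aa1 and 239 of Hprt1, while its near-identical partner vehicle 4 had 0 of each.

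LOC102549714, which the files name only by that identifier, stood at 2.31 CPM in vehicle 2 and 1.63 CPM in vehicle 3, and at no more than 0.0331 CPM in the other vehicle and 0.0719 CPM in the control libraries (log2 fold change 5.26, edgeR adjusted p = 0.174). Its log2 fold change for vehicle plus light minus light damage was 6.65 (edgeR adjusted p = 0.00322).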
